A study of Macaca mulatta with 24 samples.

Results

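Wood smoke was compared with filtered air after 1 day of exposure in airway epithelial cells of the rhesus macaque (Macaca mulatta). The cells were primary tracheobronchial cells of adult females, grown on porous inserts and differentiated at an air–liquid interface in medium with retinoic acid. Cultures received diluted whole wood smoke or filtered air for 6 hours per exposure day. The 8 libraries of 1 day, 4 air and 4 smoke, were used of 24 in all, the others being air and smoke after 5 days, and after those days plus a week (7 days) without exposure, called recovery below. Each of 4 animals (S1 to S4) gave 1 air and 1 smoke culture at each time, so the libraries were paired by animal. Ages were 5463 days for S1, 2930 for S2, 2238 for S3 and 1128 for S4, with body weights of 5.59, 7.17, 4.56 and 3.18 kg, so age cannot be told apart from animal. The sources used here give neither the dilution of the smoke nor how long after the 6 hours the 1-day cells were lysed. Genes entered the comparison when their value was 10 or more in at least 4 of the 8 libraries, which kept 13267 of the 35432 genes of the table.

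Wood smoke carries polycyclic aromatic hydrocarbons, aldehydes, quinones and particles, and the airway epithelium is the surface that meets them. Aromatic hydrocarbons bind the aryl hydrocarbon receptor (AHR), a ligand-activated transcription factor that pairs with ARNT in the nucleus and switches on cytochrome P450 genes of the CYP1 family. Electrophiles and oxidants modify KEAP1, which frees the transcription factor NRF2 to induce glutathione, thioredoxin and NADPH-producing enzymes. A cultured airway epithelium at an air–liquid interface contains basal cells, secretory cells that make mucins, and ciliated cells.

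The values were normalized counts, in which 1 read was worth about 0.736 to 1.25, so that approximate depths were 10.2 to 17.1 M reads per library. The approximate depth was lower in the smoke library than in the air library of all 4 animals (14.8 ± 1.81 M in air and 12.2 ± 2.02 M in smoke, SD, n = 4, two-sided exact permutation p = 0.114). The total of normalized counts was higher in smoke in all 4 animals, with no overlap (12.3 ± 0.34 M and 13.0 ± 0.32 M, exact permutation p = 0.0286, the smallest possible), and the 10 most abundant genes took more of the smoke libraries (18.5 ± 2.58% and 21.7 ± 0.75%, exact permutation p = 0.0571). None of 12 library measures passed after adjustment (lowest adjusted p = 0.343). A single measure could not have passed, because the smallest possible permutation p, 0.0286, becomes 0.343 over 12 measures. The permutation test also does not use the pairing by animal. Exact sign flips by animal cannot go below p = 0.125. The part of these measures in the results was not tested. Of 8 epithelial markers, 6 had at least 915 normalized counts in every library (KRT19 was highest at 38347 to 47024), and the transcription factors NKX2-1 and FOXA2 were low (59.0 to 120 and 6.18 to 105). The defining leukocyte marker PTPRC, the fibroblast markers DCN and LUM and the endothelial markers CDH5 and CLDN5 were at 0 in all 8 libraries. Other markers of the same lists were present: KDR at 1310 to 9675 (called lower, −0.27, adjusted p = 0.00289), PDGFRA at 483 to 670 (called higher, 0.18, adjusted p = 0.0457), CD68 at 194 to 631 (called higher, 0.29, adjusted p = 0.0143) and LYZ at 1963 to 3276 (not called). The summed levels in air and in smoke were 542 to 696 and 580 to 763 for fibroblast markers, 2549 to 3670 and 2656 to 3591 for immune markers, and 2029 to 9760 and 1484 to 9150 for endothelial markers. The libraries of S1 were the least like the rest (median correlation 0.945 and 0.942 with the other 7, against 0.958 to 0.962).

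After 1 day 1479 genes were called, 11.1% of those tested: 688 were higher in smoke (5.19%) and 791 were lower (5.96%). The test was limma on log2(value + 1) with the animal as a block, and a gene was called at a Benjamini-Hochberg adjusted p under 0.05 over all genes tested. Adjusted p-values of smoke against air at 1 day below are from this test. Changes between times had fits of their own, described with them. Log2 changes are smoke minus air with the SE of the fit, in which the variance of each gene is moderated across genes. Where animals differ, this SE can be smaller than that of the 4 pairs alone. CYP1B1 had changes of 3.24, 3.49, 2.75 and 1.81 in S1 to S4 beside an SE of 0.18. Most changes were small. The median size among called genes was 0.24 on the log2 scale, 1319 of them (89.2%) were under 0.5, and 22 reached 1 (13 higher, 9 lower). Of the called genes, 1440 moved the same way in all 4 animals, and in 398 the air and smoke values did not overlap. Over all genes tested, 16.7% were higher and 15.7% lower in all 4 animals, and non-overlap with smoke higher was seen in 1.49% and with smoke lower in 2.70%. The median log2 change over all genes was 0.0039, with 50.9% above 0. The block and the moderated variance carried most calls: without the block 1 gene was called (CYP1B1), and without a variance trend 0 were called, although 2751 had an unadjusted p under 0.05 (3449 in the fit reported here). When values were scaled to library totals, 2239 genes were called, 222 higher and 2017 lower, so that 9.92% of calls were higher in place of 46.5%. That scaling moved the median over all genes to −0.078, and 13 of the 30 list medians turned from above to below 0. Counts of list members called are to be read against 11.1% called in either direction among all genes, and the share called in each list is given beside them.

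**Figure D1:**
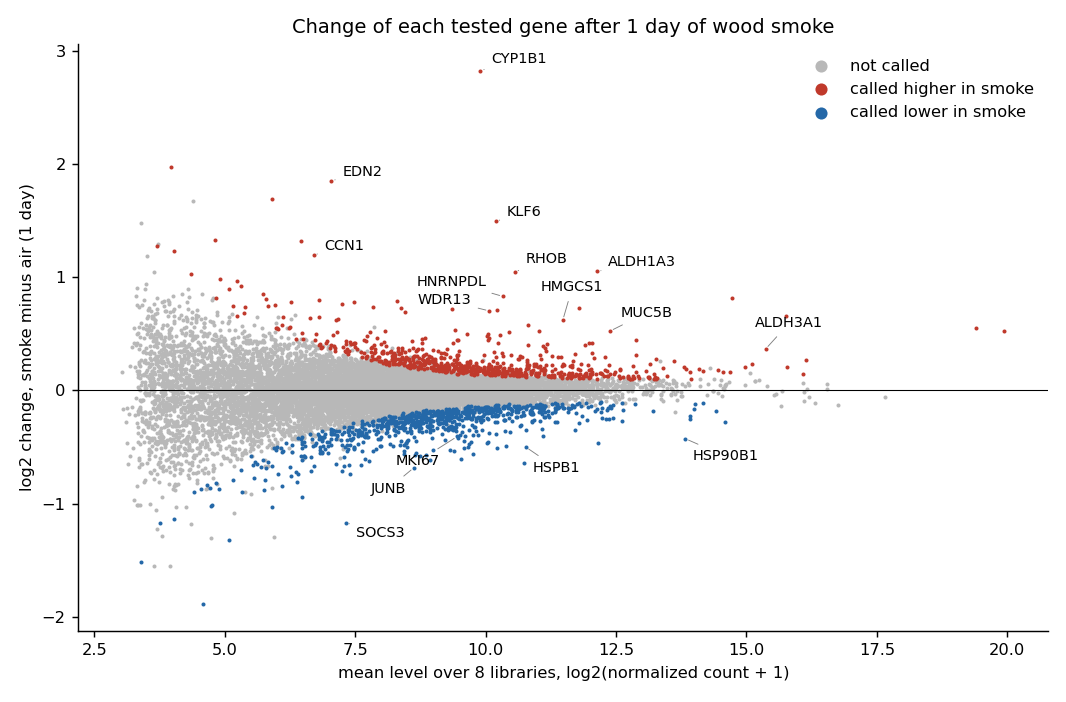
Log2 change from air to smoke after 1 day (vertical axis, mean of 4 animals) against the mean level over the 8 libraries (horizontal axis, log2 of normalized count + 1) for the 13267 genes tested. Red points are the 688 genes called higher, blue points the 791 called lower and grey points genes not called. CYP1B1 stands highest among the labelled genes at 2.82, and most called genes lie within 0.5 of 0.

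The largest change of all genes called was in an AHR target. CYP1B1 (ENSMMUG00000013945), a cytochrome P450 that oxidizes polycyclic aromatic hydrocarbons and oestrogens, had 173, 206, 244 and 308 normalized counts in the air libraries of S1 to S4 and 1649, 2335, 1643 and 1081 in their smoke libraries. Every smoke library was above every air library, and the fold was smallest in S4, the youngest animal. CYP1B1 rose 7.08-fold (log2 2.82 ± 0.18, adjusted p = 3.06e-07). CYP1A1, the classical AHR target, was under the filter, with 1.72, 0.926, 0.781 and 0 normalized counts in air and 60.6, 3.21, 11.8 and 2.23 in smoke. The groups did not overlap, but the smoke values ran from near the value of 1 read to 60.6, the highest in S1. The log2 difference of CYP1A1 was 2.54 (exact permutation p = 0.0286 over 70 assignments, the smallest possible, and sign-flip p = 0.125, also the smallest possible). CYP1A2 was listed at 0 in all 8 libraries.

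Other AHR targets moved far less. Of 7 target genes tested, 4 were called higher and 0 lower (57.1% in all), against 5.19% and 5.96% of all genes, with a median log2 change of 0.36 over the list. NQO1, a quinone reductase induced through both AHR and NRF2, had 477, 500, 543 and 615 in air and 709, 622, 698 and 712 in smoke, with no overlap, and rose 1.29-fold (adjusted p = 0.00130). ALDH3A1, an aldehyde dehydrogenase, was abundant (58186, 18046, 38134 and 30923 in air and 81249, 21025, 51294 and 38823 in smoke) and rose in each animal from its own level, by log2 0.36 ± 0.04 (adjusted p = 6.57e-05), while the groups overlapped. TIPARP, a mono-ADP-ribosyltransferase that limits AHR activity, rose by 0.30 ± 0.072 (adjusted p = 0.0175), and the S2 pair moved most, from 1257 to 2042. The receptor's repressor AHRR was at 0.04 ± 0.043 (adjusted p = 0.610) and at −0.043 under library totals. SERPINB2 was at 0.50 and CYP2S1 at −0.16, neither called. The receptor gene AHR itself fell, from 2478, 2342, 2399 and 2374 in air to 2216, 2038, 1824 and 2096 in smoke, with no overlap (log2 −0.23 ± 0.041, adjusted p = 0.00252). Its partners ARNT, ARNT2 and PTGES3 were all below 0 (−0.31 to −0.06) and none was called. In the list of the receptor and its partners 1 of 5 tested was called (20.0%).

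**Figure D2:**
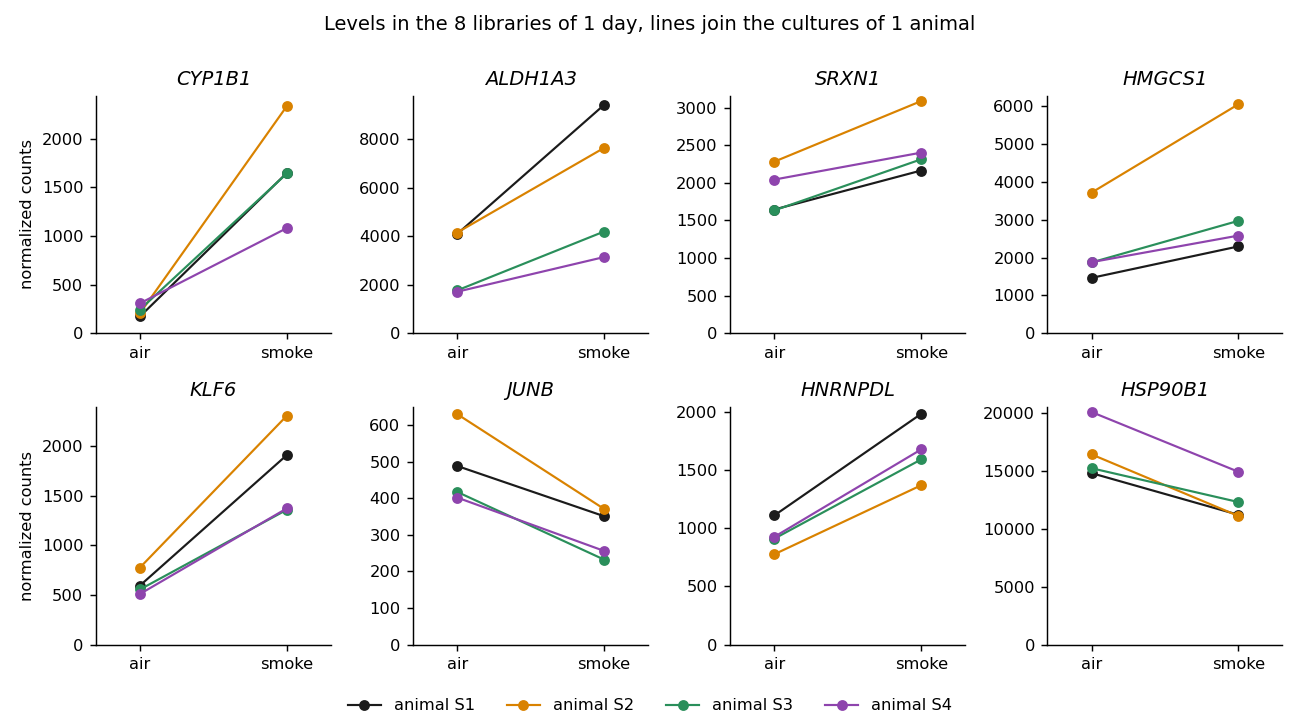
Normalized counts (vertical axes from 0) in the air and smoke libraries of 1 day for 8 genes, with a line joining the cultures of each animal (S1 to S4). CYP1B1, ALDH1A3, SRXN1, HMGCS1, KLF6 and HNRNPDL are higher in smoke in all 4 animals, and JUNB and HSP90B1 are lower in all 4.

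Most NRF2 target genes tested were called higher, by small amounts. Of 30, 20 were called higher and 2 lower (73.3% in all, against 11.1% of all genes), 28 had a log2 change above 0, and the median was 0.16. SRXN1, sulfiredoxin, which repairs over-oxidized peroxiredoxins, had 1646, 2282, 1634 and 2044 in air and 2164, 3088, 2314 and 2402 in smoke. It was higher in smoke in every animal and rose by log2 0.39 ± 0.042 (adjusted p = 4.97e-05). GCLC, the catalytic subunit of the enzyme that limits glutathione synthesis, rose by 0.33 ± 0.036 (adjusted p = 6.57e-05), whereas its modifier subunit GCLM was at 0.10 and was not called. PGD, an NADPH-producing enzyme of the pentose phosphate pathway, rose by 0.29 ± 0.033 (adjusted p = 9.13e-05), and TKT and TALDO1 of the same pathway rose by 0.16 and 0.14. AKR1C1, an aldo-keto reductase, had 3085, 2927, 2892 and 3045 in air and 3739, 4010, 3816 and 3408 in smoke, with no overlap, and rose by 0.32 ± 0.042 (adjusted p = 2.89e-04). Its reads may be shared with near-identical family members, so its own level is uncertain. HMOX1, haem oxygenase, was low, with 37.1, 113, 73.4 and 67.6 in air and 52.0, 230, 143 and 73.8 in smoke. It rose by 0.64 ± 0.16 (adjusted p = 0.0169), mainly in S2 and S3, with little difference in S4, and was called in 2 of the 4 fits that left out 1 animal. The ferritin subunits FTL and FTH1 (0.23 and 0.16), TXN (0.17), TXNRD1 (0.16) and GPX2 (0.25) also rose. UGDH (−0.23) and EPHX1, microsomal epoxide hydrolase (−0.12), fell. Under library totals the list's median was 0.08, with 8 called higher and 2 lower, and without S1, S2, S3 or S4 the list had 14, 12, 11 and 17 called higher.

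Xenobiotic enzymes outside those lists gave 3 called higher and 2 lower of 19 tested (26.3%; median 0.07). Under library totals 1 was called higher and 3 lower, with a median of −0.02. GSTA4, a glutathione transferase that acts on the lipid aldehyde 4-hydroxynonenal, had 527, 483, 623 and 599 in air and 861, 737, 862 and 756 in smoke. No air value reached the smoke values, and it rose by log2 0.53 ± 0.058 (adjusted p = 6.57e-05). POR, the reductase that supplies electrons to P450 enzymes, rose by 0.15 (adjusted p = 0.00843) but was not called under library totals. The flavin monooxygenase FMO2 (−0.31 ± 0.062, adjusted p = 0.00614) and the arachidonate epoxygenase CYP2J2 (−0.23 ± 0.057, adjusted p = 0.0210) fell. Among metallothioneins and zinc transporters 1 of 9 identifiers rose and 2 fell (33.3%; 1 or 2 fell without 1 animal). The zinc exporter SLC30A2 rose by 0.33, and the importer SLC39A10 and the exporter SLC30A1 fell by 0.43 and 0.29. The metallothioneins MT2A, MT1X and MT1E were at 0.07, 0.02 and −0.02, not called.

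Retinoic acid genes were examined because retinoic acid was in the medium of every culture. ALDH1A3, a retinaldehyde dehydrogenase that makes retinoic acid, had 4095, 4155, 1769 and 1713 in air and 9419, 7646, 4196 and 3144 in smoke. Each animal was higher in smoke than in air, and S1 and S2 lay above S3 and S4 in both groups. ALDH1A3 rose 2.07-fold (log2 1.05 ± 0.055, adjusted p = 4.86e-08). CYP26A1, which degrades retinoic acid, rose by 0.31 ± 0.056 (adjusted p = 0.00321). The receptor RARA rose (0.28, adjusted p = 0.0207), though it was not called under library totals, and the transglutaminase TGM2 fell (−0.16). In all, 4 of 13 were called higher and 1 lower (38.5%), with a median of 0.09. Under library totals 2 were called higher and 2 lower, with a median of 0.01, and without S1, S2, S3 or S4 2, 2, 4 and 2 were called higher.

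Immediate early genes, which respond within minutes to hours to growth factors and stress, moved in both directions. Of 27 tested, 14 were called higher and 5 lower (70.4%), and the median was 0.35. KLF6, a zinc finger transcription factor induced by injury, had 594, 776, 555 and 510 in air and 1910, 2306, 1358 and 1372 in smoke. All smoke libraries were above all air libraries, and the gene rose 2.81-fold (log2 1.49 ± 0.055, adjusted p = 1.24e-09), the smallest adjusted p of the genes named. RHOB, a short-lived small GTPase gene, rose from 520, 1607, 909 and 1003 to 1507, 3030, 1891 and 1601. Each animal was higher in smoke, with overlapping groups (log2 1.04 ± 0.09, adjusted p = 8.31e-06). CCN1, a secreted matrix-associated protein, rose by 1.19 ± 0.14 (adjusted p = 1.08e-04) at low levels (60.7 ± 23.6 in air and 146 ± 67.2 in smoke, SD, n = 4). MYC (0.74), JUN (0.71), DUSP1 (0.50), EGR1 (0.49) and KLF4 (0.44) rose as well. EGR1, a zinc finger factor, had 1205, 916, 1007 and 1029 in air and 1563, 1367, 1495 and 1398 in smoke, with no overlap (adjusted p = 9.72e-06). KLF2 rose by 0.89 (adjusted p = 0.0163) from 22.2 normalized counts in air and was called in 2 of the 4 fits that left out 1 animal. EGR2 passed the filter only through its smoke libraries (10.5, 11.0, 25.7 and 23.0), as its air values were all under 10 (3.23, 9.53, 5.85 and 7.48). Its log2 difference of 1.27 (adjusted p = 0.0355) is among the 14 called higher and is given as a description. In each fit that left out 1 animal EGR2 was under the filter and was not tested.

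In the other direction, JUNB, an AP-1 subunit, had 489, 631, 418 and 402 in air and 351, 371, 233 and 256 in smoke, with no overlap. It fell by log2 0.68 (SE 0.068, adjusted p = 2.73e-05). FOS fell by 0.27, BTG2 by 0.35, NR4A2 by 0.37 and IER5 by 0.87, so that within AP-1 the genes JUN, JUND (0.18) and FOSL2 (0.21) were called higher while JUNB and FOS were called lower. IER5 was called in 1 of the 4 fits that left out 1 animal. SOCS3, a feedback inhibitor of cytokine signalling, had 258, 203, 220 and 165 in air and 212, 77.0, 64.3 and 69.3 in smoke. The S1 pair changed little and the other 3 animals dropped to less than the lowest air value (log2 −1.17 ± 0.17, adjusted p = 7.54e-04). Without S1, S2, S3 or S4 the immediate early list had 12, 11, 9 and 13 called higher and 4, 3, 2 and 2 lower, and under library totals 11 and 6. In the EGF receptor list, 0 of 17 were called higher and 3 lower (17.6%; the median of 0.004 turned to −0.08 under library totals): PHLDA1 (−0.66 ± 0.096, adjusted p = 6.56e-04), the signalling inhibitor SPRED1 (−0.27 ± 0.055, adjusted p = 0.00639) and EGFR itself (−0.13 ± 0.035, adjusted p = 0.0321). EGFR was called in 0 of the 4 fits without 1 animal. The ligands AREG, HBEGF, BTC and TGFA lay between −0.07 and 0.21, not called.

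RNA-processing genes moved in both directions. Among 30 SR protein, hnRNP and CLK kinase genes, 7 were called higher and 8 lower (50.0%), with a median of 0.03. Under library totals 4 were called higher and 9 lower, with a median of −0.05. HNRNPDL, an RNA-binding protein of the hnRNP D family, had 1109, 775, 910 and 925 in air and 1982, 1368, 1590 and 1676 in smoke. The lowest smoke value was above the highest air value, and it rose 1.78-fold (log2 0.83 ± 0.037, adjusted p = 9.98e-09). SRSF5, an SR splicing factor, had 1768, 1566, 1773 and 1751 in air and 2456, 2326, 2596 and 2501 in smoke, again with no overlap, and rose by 0.53 ± 0.034 (adjusted p = 3.78e-07). SRSF6 rose by 0.41 ± 0.043 and HNRNPD by 0.40 ± 0.037 (adjusted p = 4.59e-05 and 1.23e-05). CLK1, a kinase that phosphorylates SR proteins (−0.48), SRSF10 (−0.37), HNRNPH3 (−0.36) and SRSF1 (−0.21) fell. Of 21 nuclear speckle genes 7 were called higher and 4 lower (52.4%), with a median of 0.02. Under library totals 3 were called higher and 5 lower, with a median of −0.06, and without S1, S2, S3 or S4 there were 5, 4, 4 and 5 called higher and 3, 1, 1 and 1 lower. AKAP17A, a speckle protein that binds protein kinase A, had 198, 225, 255 and 246 in air and 318, 399, 453 and 437 in smoke, with no overlap, and rose by 0.79 ± 0.066 (adjusted p = 5.86e-06). The paralogous helicases moved apart: DDX5 rose by 0.32 ± 0.029 (adjusted p = 1.35e-05) and DDX17 fell (log2 −0.28 ± 0.034, adjusted p = 1.92e-04), and PNISR rose by 0.45. WDR13, a WD-repeat protein outside the lists, had 868, 770, 865 and 774 in air and 1370, 1208, 1380 and 1376 in smoke and rose by 0.70 ± 0.043 (adjusted p = 3.06e-07).

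Most cholesterol synthesis genes tested were called higher. Of 23, 15 were called higher and 0 lower (65.2%), 21 were above 0, and the median log2 change was 0.29 (0.23 to 0.39 within single animals). These are targets of the transcription factor SREBP2, which is released when membrane sterols are low. HMGCS1, an early enzyme of the mevalonate pathway, had 1464, 3716, 1872 and 1879 in air and 2296, 6051, 2972 and 2581 in smoke. S2 was the highest in both groups and all 4 animals increased (log2 0.62 ± 0.04, adjusted p = 3.78e-07). INSIG1, which retains the SREBP complex in the endoplasmic reticulum, rose by 0.51 ± 0.048 (adjusted p = 1.50e-05), and the epoxidase SQLE by 0.48 ± 0.049 (adjusted p = 3.99e-05). ACAT2 (0.50), MVD (0.37) and MSMO1 (0.37) were also called. DHCR7, an enzyme of the last steps, was at 0.13, and SREBF2, which encodes SREBP2, was at 0.05, neither called. Under library totals 13 were called higher and STARD4 was called lower, and 13 or 14 were called higher when any animal was left out.

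Most endoplasmic reticulum chaperone genes tested were called lower. Of 18, 0 were called higher and 11 lower (61.1%), 16 were below 0, and the median was −0.18. HSP90B1, the endoplasmic reticulum form of HSP90, had 14820, 16442, 15245 and 20105 in air and 11217, 11116, 12319 and 14937 in smoke. It was lower in smoke in every animal, most in S2 (log2 −0.43 ± 0.037, adjusted p = 9.08e-06). PDIA4, a protein disulphide isomerase, had 4678, 5294, 4602 and 6550 in air and 3705, 3334, 3599 and 4596 in smoke, with no overlap (log2 −0.47 ± 0.046, adjusted p = 2.40e-05). HSPA5, the main chaperone of the compartment, fell by 0.25 (SE 0.038, adjusted p = 9.08e-04), and DNAJC3, CRELD2, HYOU1, CALR and CANX fell by 0.24, 0.45, 0.20, 0.12 and 0.17. XBP1, DNAJB9, EDEM1 and HERPUD1 were at −0.10, −0.06, 0.01 and 0.06, not called.

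Heat shock proteins and their cochaperones had 3 called higher and 10 lower of 21 tested (61.9%), with a median of −0.13. HSPB1, a small heat shock protein, had 1767, 2416, 1999 and 1979 in air and 1182, 1686, 1550 and 1369 in smoke. No smoke value reached the lowest air value (log2 −0.50 ± 0.04, adjusted p = 4.27e-06). HSP90AA1, the inducible cytosolic HSP90, fell by 0.27 (SE 0.03, adjusted p = 6.57e-05), HSPH1 by 0.40 and the mitochondrial chaperonin HSPD1 by 0.34. DNAJB1, an HSP40 cochaperone and heat shock target, went the other way, with 3333, 4391, 3090 and 2984 in air and 4292, 5636, 4386 and 4048 in smoke, and rose by 0.42 ± 0.034 (adjusted p = 4.27e-06), together with BAG3 (0.18) and HSPA9 (0.18). Under library totals the counts were 1 higher and 15 lower for this list, and 0 and 15 for the endoplasmic reticulum list. Without 1 animal at a time 9 to 11 endoplasmic reticulum genes and 7 to 10 heat shock genes were called lower.

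**Figure D3:**
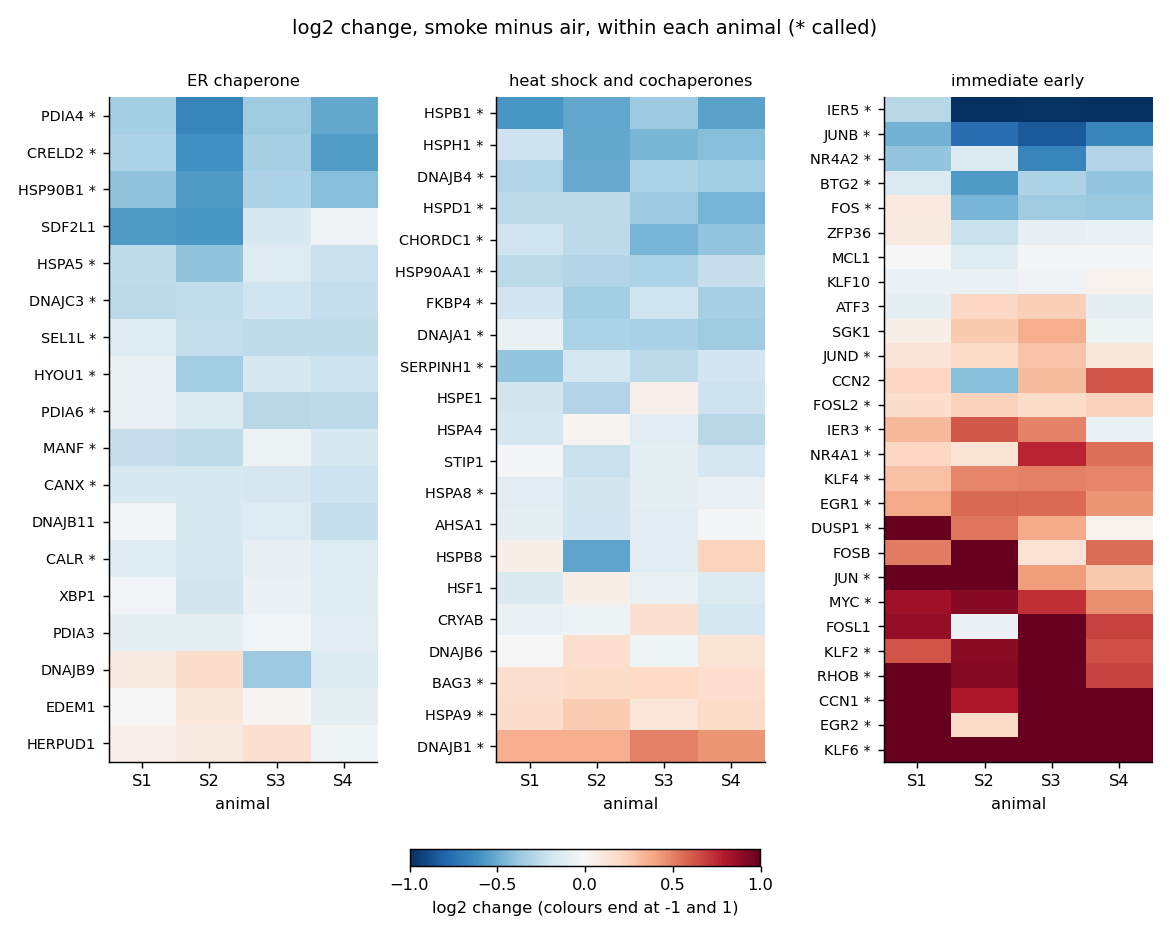
Log2 change from air to smoke within each animal (columns S1 to S4) for the tested members of 3 gene lists (rows, ordered by mean change), with red higher and blue lower in smoke. Asterisks mark called genes. Colours end at −1 and 1. In the endoplasmic reticulum (ER) panel 11 of 18 rows are called and all of them are blue on average, and in the immediate early panel 14 of 27 rows are called higher and 5 lower.

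Amino acid stress genes under ATF4, the factor of the integrated stress response, had 6 called higher and 1 lower of 22 (31.8%; median 0.20). Under library totals 3 were called higher and 2 lower, and without S1, S2, S3 or S4 3, 3, 3 and 4 were called higher. SLC3A2 and SLC7A5, the subunits of a large neutral amino acid transporter, rose by 0.34 ± 0.042 and 0.46 ± 0.076 (adjusted p = 1.84e-04 and 0.00182). PPP1R15A, a phosphatase subunit that restores translation, rose by 0.45 ± 0.058 (adjusted p = 2.57e-04), and ASNS and SESN2 by 0.36 and 0.24. DDIT4, an inhibitor of mTORC1, fell (log2 −0.35 ± 0.046, adjusted p = 2.94e-04). TRIB3 and GDF15 had larger means (0.69 and 0.66) but were not called. Hypoxia and glycolysis genes gave 1 called higher and 5 lower of 22 identifiers (27.3%), with a median of −0.01. Without S1, S2, S3 or S4 there were 4, 3, 1 and 3 called lower, and under library totals 7. VEGFA, the vascular growth factor, rose by 0.33 ± 0.055 (adjusted p = 0.00171). The prolyl hydroxylase P4HA1 (−0.35 ± 0.039, adjusted p = 6.63e-05), NDRG1 (−0.23), PFKFB3 (−0.23), HK2 (−0.17) and ADM (−0.44) fell.

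Of 14 basal cell genes 1 was called higher and 2 lower (21.4%; 0 and 5 under library totals). Fewer cells of a type and less RNA per cell cannot be told apart in these bulk cultures. TP63, the basal transcription factor, fell from 960, 671, 742 and 724 to 783, 486, 573 and 591, lower in each animal (log2 −0.36 ± 0.049, adjusted p = 3.98e-04), and DST, which anchors hemidesmosomes, had 3850, 3835, 3820 and 4094 in air and 3322, 3285, 3064 and 3090 in smoke, with no overlap (log2 −0.29 ± 0.036, adjusted p = 2.16e-04). KRT5, the basal keratin, was at −0.03 ± 0.035 (adjusted p = 0.629). None of 14 multiciliogenesis regulators was called by limma, against 11.1% of all genes, a difference that was not tested (3 had an unadjusted p under 0.05, and RFX3 came nearest at −0.34 ± 0.11, adjusted p = 0.0598), and FOXJ1, the master regulator of motile cilia, was at 0.04 ± 0.046 (adjusted p = 0.611; −0.04 under library totals and −0.027 without S4). Under library totals 2 regulators were called lower, and the list median turned from 0.05 to −0.03. Of 23 motile cilium genes 4 were called higher (ZMYND10 0.32, DNAI1 0.28, ROPN1L 0.26 and TEKT1 0.15) and 0 lower (17.4%), with a median of 0.07. Under library totals 2 were called higher and 1 lower, with a median of −0.02, and without S1, S2, S3 or S4 3, 3, 3 and 1 were called higher.

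Among goblet cell genes 4 mucins rose and 2 other genes fell, 66.7% of the 9 tested. MUC5B, a gel-forming mucin, had 5700, 158, 2283 and 8492 in air and 12361, 198, 2849 and 10729 in smoke. Its level differed more between animals than between groups, and the S1 pair rose most (log2 0.52 ± 0.096, adjusted p = 0.00340). The membrane mucin MUC4 rose by 0.40 ± 0.036 (adjusted p = 1.15e-05) and MUC1 and MUC20 by 0.13 and 0.11, whereas CLCA1, a secreted goblet cell protein, fell (log2 −0.24 ± 0.03, adjusted p = 2.17e-04), as did the transcription factor CREB3L1 (−0.16). Under library totals 2 were called higher and 3 lower, the median turned from 0.05 to −0.03, and without S1, S2, S3 or S4 3, 4, 2 and 2 were called higher and 2, 1, 1 and 1 lower. MUC5AC had no match in the table. Of 11 club and secretory genes (9.09% called; 0 higher and 2 lower under library totals), LCN2, lipocalin, was called (0.12, adjusted p = 0.0254, not under library totals), and SCGB1A1, the club cell secretoglobin, was near the filter at 17.6 ± 7.49 in air and 20.9 ± 13.0 in smoke (log2 0.08 ± 0.30, −0.19 without S1 and −0.000247 without S4). KRT4 was the called gene among 10 squamous genes (10.0%, against 11.1% of all genes), at 0.14 (adjusted p = 0.0497). Under library totals 0 of them were called, and the list median turned from 0.04 to −0.04. Of the ionocyte markers CFTR, the chloride channel, was tested (−0.16 ± 0.20, adjusted p = 0.663).

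Of 17 tight junction and adhesion genes 3 rose and 1 fell (23.5%). Under library totals the balance was the reverse, with 1 called higher and 6 lower, and the median turned from 0.02 to −0.06. EPHA2, an ephrin receptor, had 2237, 2218, 2266 and 2105 in air and 2705, 2659, 2928 and 2619 in smoke, with no overlap, and rose by 0.31 ± 0.034 (adjusted p = 6.57e-05). CLDN4 rose by 0.21 and TJP3 by 0.14, neither called under library totals, and CLDN1, a barrier-forming claudin, fell (log2 −0.32 ± 0.048, adjusted p = 8.05e-04). Among 17 channel and transporter identifiers (17.6% called; 0 higher and 4 lower under library totals, the median turning from 0.05 to −0.03), the amino acid transporter SLC6A14 fell under both of its identifiers (log2 −0.27 and −0.37, adjusted p = 0.000777 and 0.0031), and SCNN1A, the alpha subunit of the epithelial sodium channel, rose by 0.10 (adjusted p = 0.0370, not under library totals). The calls of LCN2, TEKT1, TJP3 and SCNN1A were lost in each of the 4 fits without 1 animal.

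Of 15 inflammatory genes tested, limma called 0 against 11.1% of all genes, and 4 had an unadjusted p under 0.05. The difference from that share was not tested. Under library totals 3 were called lower, and without S4 1 was called higher. CXCL3 was at −0.67 ± 0.25 (adjusted p = 0.0997), ICAM1 at 0.15 ± 0.063 (adjusted p = 0.154) and CXCL8 at 0.55 ± 0.29 (adjusted p = 0.255). CXCL8 had 172 and 171 normalized counts in the S1 libraries and 1.86 to 29.6 in the others. IL1B and IL6 were under the filter, with a highest value of 7.81 and 11.1. Of 18 interferon-stimulated genes (5.56% called, against 11.1% of all genes) IRF1 was called, lower (−0.16, adjusted p = 0.0457). Under library totals 5 were called lower, and the median turned from 0.01 to −0.07. Matrix and wound genes gave 1 of 19 (5.26%, against 11.1% of all genes; median 0.001, −0.08 under library totals), ITGAV, an integrin chain, lower (−0.28 ± 0.035, adjusted p = 2.17e-04).

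Of 24 cell cycle genes 0 were called higher and 4 lower (16.7%, against 5.96% lower among all genes), 18 were below 0, and the median was −0.11. MKI67, a marker of cycling cells, had 1317, 450, 570 and 820 in air and 1135, 324, 424 and 573 in smoke, lower in each animal (log2 −0.41 ± 0.055, adjusted p = 3.86e-04), and CCNA2, CENPF and TOP2A fell by 0.46, 0.30 and 0.24. Without S1, S2, S3 or S4 3, 2, 2 and 1 of the list were called lower. Of 19 p53 targets (26.3% called; 0 higher and 5 lower under library totals) 2 were called higher, CDKN1A (0.17) and PLK2 (0.31), and 3 lower, GADD45B (−0.49), TP53INP1 (−0.26) and MDM2, the ligase that degrades p53 (−0.21 ± 0.04, adjusted p = 0.00508). Of 14 circadian genes (21.4% called; the median of 0.08 turned to −0.005 under library totals) BHLHE40, a transcriptional repressor also induced by stress, rose (0.42 ± 0.03, adjusted p = 1.41e-06), NR1D1 rose (0.34) and PER2 fell (−0.31).

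**Figure D4:**
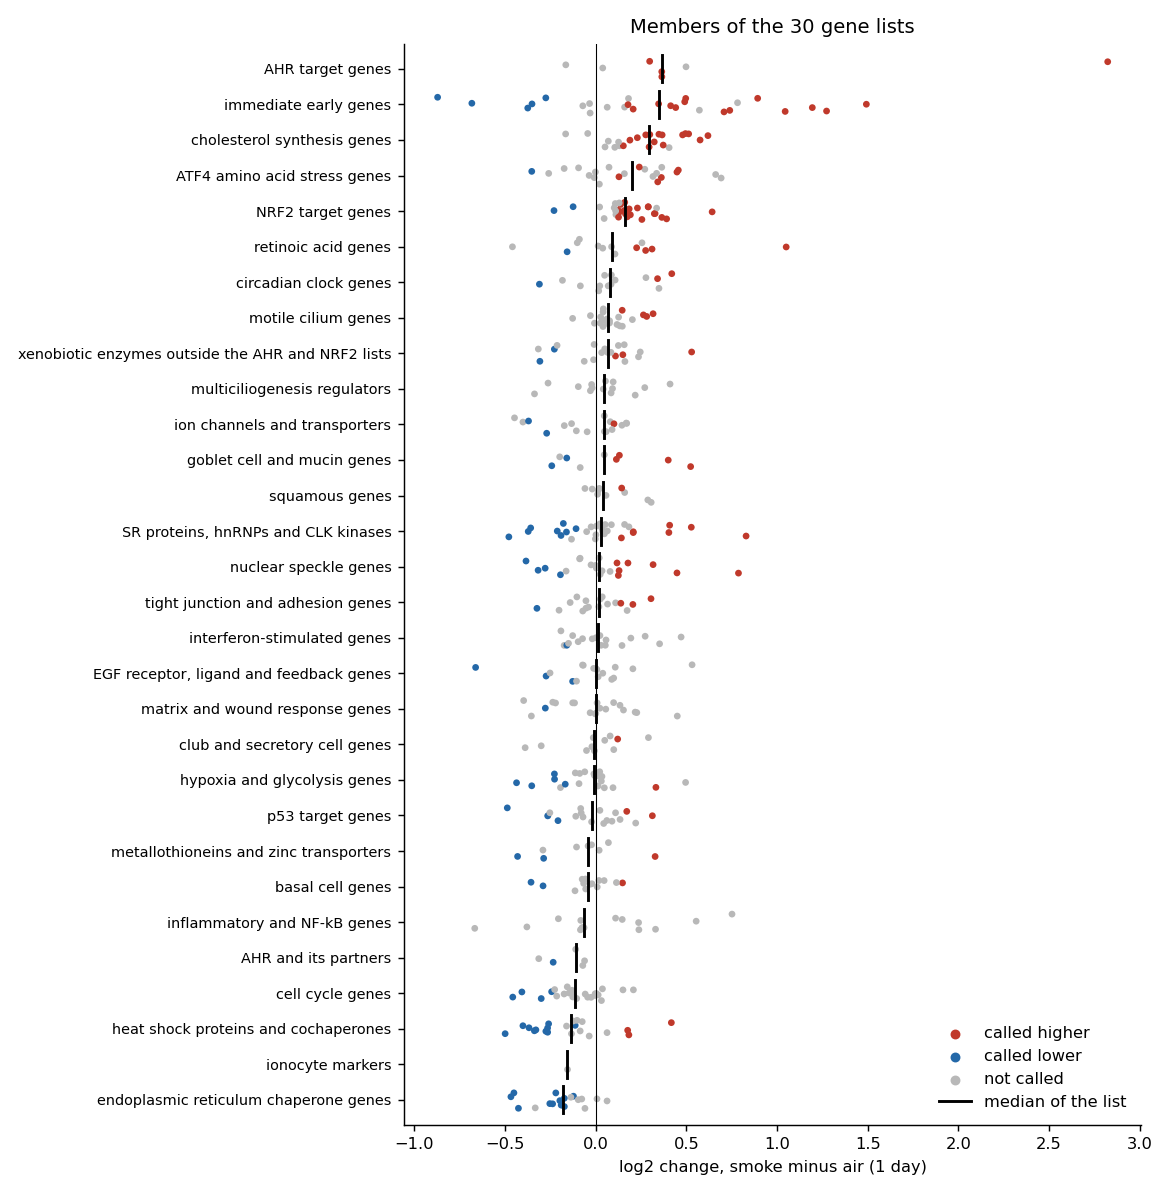
Log2 change from air to smoke after 1 day (horizontal axis) of each tested member of 30 gene lists (rows, ordered by median), with black bars at the list medians. Red and blue points are genes called higher and lower, grey points were not called. AHR targets, immediate early, cholesterol synthesis, ATF4 and NRF2 lists have the highest medians, from 0.16 to 0.36, and endoplasmic reticulum chaperones the lowest at −0.18.

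Among genes with a symbol, the others with the largest called changes were mostly expressed at low levels. EDN2, an endothelin peptide, had 1.73, 157, 93.7 and 39.2 in air and 18.6, 284, 272 and 181 in smoke and rose by 1.85 ± 0.24 (adjusted p = 2.54e-04). SLC2A3, a glucose transporter, rose by 0.80 ± 0.12 (adjusted p = 9.08e-04). TCTEX1D4, the connexin GJA4, the calcium channel subunit CACNA1C, ZNF891 and TPH1, a tryptophan hydroxylase, rose by 1.33, 1.23, 0.98, 0.92 and 0.80, with mean air levels of 8.58 to 44.6. Each of these 5 was called in 0 to 2 of the 4 fits without 1 animal. GJA4 passed the filter mainly through its smoke libraries (17.3, 20.3, 15.2 and 34.7), with 5.18, 11.1, 8.59 and 9.45 in air. Its change is given as a description. Among genes that fell, H4C14, a histone H4 gene, had 130, 101, 110 and 125 in air and 75.9, 47.3, 62.1 and 57.7 in smoke, with no overlap (log2 −0.94 ± 0.13, adjusted p = 4.35e-04). HIST1H2AK, a histone H2A gene, fell by 1.01 (adjusted p = 0.0478) and was called in 0 of the 4 fits without 1 animal. Histone genes have near-identical copies, and most of their transcripts lack a poly-A tail, so their levels in poly-A libraries are uncertain. SNX16, a sorting nexin, had 73.1, 62.4, 60.4 and 76.0 in air and 52.5, 23.7, 37.3 and 37.9 in smoke, with no overlap (log2 −0.88 ± 0.18, adjusted p = 0.00736). STXBP4 and HR, a transcriptional corepressor, fell by 0.84 and 0.81 (adjusted p = 0.00283 and 0.00694). CACNA1D, DMRT3, PFDN4, GEM, ZC3HAV1L, NTF3, FRS3 and C7H14orf28 fell by 0.82 to 1.14, at mean air levels of 21.2 to 50.0, and each was called in 0 to 2 fits without 1 animal. CACNA1D passed the filter mainly through its air libraries (11.5, 17.3, 29.9 and 26.3), with 5.07, 9.61, 15.8 and 6.60 in smoke. Its fall is given as a description. GEM, HIST1H2AK and ZC3HAV1L were not called after quantile normalization.

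The same animals were also sampled after 5 days and after recovery, and the smoke effect was tested for change from 1 day. Each change had its own limma fit on the libraries of 1 day and of the later time. Each animal at each time was a block, and genes were filtered anew for each fit. Adjusted p-values of changes are from these fits, over the genes tested in each. Both tests share the 1-day libraries with the comparison above, and genes named for a large 1-day change had room to shrink, so the values stand side by side. From 1 day to 5 days 3 of 13794 genes changed (0.0217%), 1 upward (0.00725%) and 2 downward (0.0145%), against 1118 with an unadjusted p under 0.05. KLF6 was at 1.49 at 1 day and −0.03 at 5 days (change −1.52 ± 0.13, adjusted p = 0.0119), CYP26A1 at 0.31 and −1.05 (change −1.36 ± 0.15, adjusted p = 0.0359), and RGS2, a regulator of G protein signalling, at −0.71 and 0.73 (change 1.44 ± 0.16, adjusted p = 0.0359). Among the 24 libraries, air at 5 days from S1 was unlike the rest (median correlation 0.851 with the others, 0.932 to 0.957 for the other 23). Without S1 176 genes changed, against 0 without S2, S3 or S4 (603 to 708 with an unadjusted p under 0.05). CYP1B1 was at 2.82 and 2.65 and HNRNPDL at 0.83 and 0.80, with changes of −0.18 ± 0.52 and −0.03 ± 0.14 that did not pass (adjusted p = 0.897 and 0.933).

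From 1 day to recovery the smoke effect of 2463 of 13825 genes changed (17.8%), 1145 upward (8.28%) and 1318 downward (9.53%). CYP1B1 was at 0.07 after recovery (change −2.75 ± 0.28, adjusted p = 1.44e-05), KLF6 at −0.01 (adjusted p = 3.62e-07) and HNRNPDL at −0.28 (adjusted p = 2.36e-07). ALDH1A3 was at 0.89 (change −0.16 ± 0.091, adjusted p = 0.241), and CYP26A1 at −1.76 (change −2.07 ± 0.11, adjusted p = 1.54e-08). For the endoplasmic reticulum chaperones the median effect was −0.18 at 1 day, −0.23 at 5 days and 0.45 after recovery, and 17 of 18 moved up by recovery. HSPA5 was at −0.25, −0.36 and 0.76. The basal list had medians of −0.04, −0.12 and −0.56, with 11 of 14 moving down by recovery, and KRT5 was at −0.03, −0.17 and −1.22 (adjusted p = 1.54e-04 for the change to recovery). The cholesterol list had medians of 0.29, 0.17 and 0.10, with 2 members moving up and 7 down by recovery. FOXJ1, at 0.04 at 1 day, was at 0.53 after recovery (adjusted p = 0.00255).

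**Figure D5:**
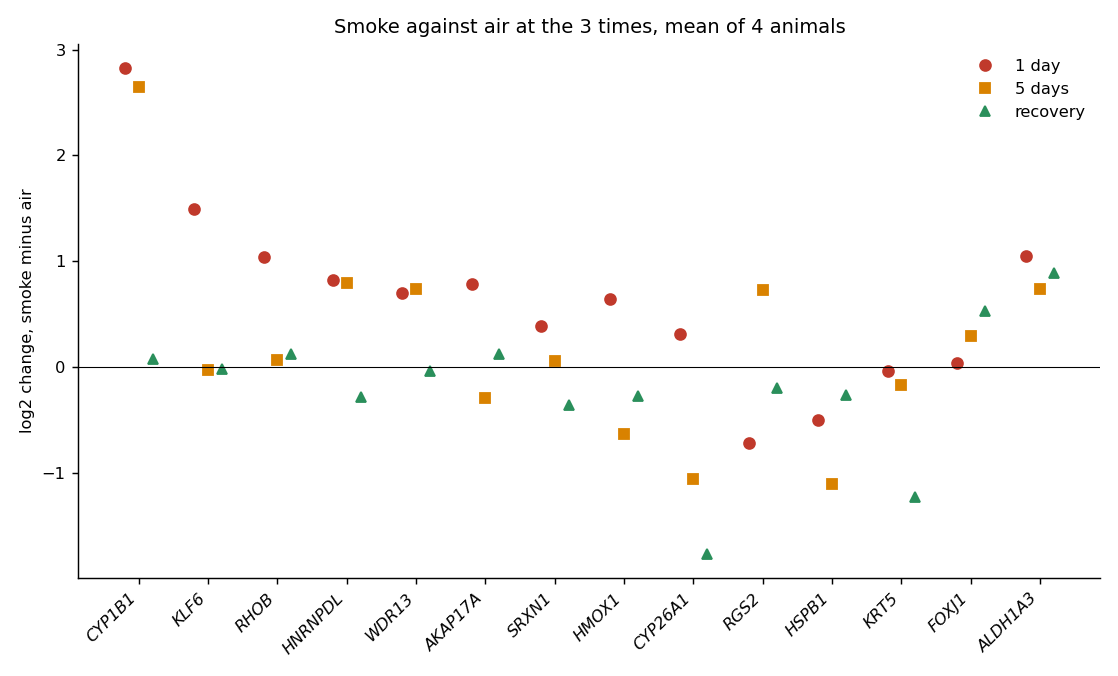
Log2 difference of smoke from air (vertical axis, mean of 4 animals) after 1 day (circles), 5 days (squares) and recovery (triangles) for 14 genes. CYP1B1 is at 2.82, 2.65 and 0.07, and KLF6 and RHOB are at 1.49 and 1.04 at 1 day and within 0.13 of 0 later. After recovery CYP26A1 is at −1.76 and KRT5 at −1.22.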

How the data were processed

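RNA was measured in 8 libraries of 1 day (4 air, 4 smoke; 24 libraries in the series) from poly-A libraries, per the labels' protocols. FastQC, Trim Galore, Bowtie2 and RSEM were used, per the submitters' processing notes, which give no versions. Genome build, annotation and normalizing tool: not given in the sources used here. The deposited table is named as raw counts, but its values are a normalized signal per gene and are not whole: 84.1 to 85.1% of low values per library lay within 0.1 of a whole multiple of a step, so whole reads were not recovered and count tests were not used. Of 35432 genes, 23817 carried a symbol and 720 more took one from the reference.

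The fit used limma 3.58.1 in R 4.3.3 on log2(value + 1) (variance trend, animal as a block, 2-sided). The residual degrees of freedom were 3, and 11.4 were added by moderation, or 1.78 without the trend. Numbers pair libraries because the labels give the animal. Deviations from group means correlated at 0.743 to 0.844 within animals and at −0.485 to −0.0479 between animals. Taking deviations from means of 4 libraries itself pushes the correlations between animals below 0, so part of that contrast is built in. The median residual SD was 0.104 with the block and 0.227 without. Cultures of separate animals are the replicates. Depth was known only approximately, so the spread over animals stands for the precision. The script was tested on simulated data.

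Members, gene lists and tests were chosen with earlier results of these data known. The 30 lists came from textbook knowledge (588 symbols, 504 tested). Genes were named by rule: the 15 largest called changes in each direction with a symbol and the same direction in 4 of 4 animals, up to 4 called members of each list by smallest p (2 members where none was called), 20 genes always given, and for each change between times the 6 largest called also at 1 day. Other list members and families named beside them were chosen after their values were seen. Alternatives were the block, the libraries fitted, pseudocount, filter, scaling, variance model, threshold and leaving out each animal. A planned description of promoter motifs was not run, because no sequence was used here. A few genes chosen by that naming rule are left out of the text.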

Additional observations from a re-analysis of the deposited data

Results flagged for a closer look

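Values of a single animal or library that stood apart from the other 3 of their kind were looked for in the 127 named genes and 12 library measures. In all, 13 were found. About 1 in 20 groups is picked out by chance. Among log2 changes of single animals, S2 was low for DMRT3 (−2.23), and S3 was low for AHR (−0.39) and RFX3 (−0.76). S1 was low for AKAP17A (0.68) and high for CLCA1 (−0.18), MUC5B (1.12) and RGS2 (−0.46). S4 was high for TEKT1 (0.27), ICAM1 (0.32) and WDR13 (0.83). The smoke library of S2 had the highest total, 13.5 M normalized counts. Both S1 libraries had the lowest median correlation with the other 7, 0.945 in air and 0.942 in smoke.

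For the genes always given or named for a change between times, the smoke effect differed between 1 day and a later time in 20 tests. Over all genes tested, the effect of 0.0217% changed by 5 days and of 17.8% by recovery. The genes named for a change were picked because they changed, so their values are descriptions. From 1 day to 5 days the log2 changes were −1.52 for KLF6, −1.36 for CYP26A1 and 1.44 for RGS2. From 1 day to recovery they were −2.75 for CYP1B1, −2.58 for EDN2, −2.37 for EGR2, −2.22 for GJA4, −2.07 for CYP26A1, −1.51 for KLF6, −1.19 for KRT5 and −1.11 for HNRNPDL. Smaller falls were seen for RHOB and HMOX1 (both −0.91), SRXN1 (−0.75), WDR13 (−0.74), AKAP17A (−0.66) and TIPARP (−0.34). The effect moved up for UBXN2B (2.02), FOXJ1 (0.49) and HSPB1 (0.24).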

How the results depend on the processing

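With the replicate block left out, 1 gene was called (1 higher, 0 lower), and in fits of all 24 libraries 13 (9 and 4) with animal as a block, 11 (10 and 1) with each animal at each time as a block, and 144 (58 and 86) with animal as a block when air at 5 days from S1 was left out, a setting chosen after seeing the data. The calls were 943 (438 and 505) with no filter, 2239 (222 and 2017) with library totals, 0 (0 and 0) without a variance trend, and 2245 (1108 higher) at an adjusted p under 0.1. Leaving out an animal gave 693 to 1018 calls, 332 to 471 higher and 361 to 547 lower. A pseudocount of 5, a stricter filter, quantile normalization and robust moderation stayed within 1.5 times of 1479. Of 117 called genes among those named, 104 were called with library totals, 108 after quantile normalization, 10 in the 24-library fit, 1 without the block and 74 in all 4 omissions of an animal. The other 43 were not called in 1 or more omissions, among them TIPARP, HMOX1, CYP2J2, SLC30A1, RARA, NDRG1, PFKFB3, KRT4, MUC1, DNAI1, ROPN1L, IRF1, GADD45B, CDKN1A, TOP2A, CENPF, CCNA2, NR1D1 and UBXN2B. EGR2, also among the 43, was under the filter in each omission and was not tested there. The change to 5 days had 5 calls with a block of animal only, 0 without a block (355 with an unadjusted p under 0.05) and 0 to 176 without 1 animal, and the change to recovery had 1175, 51 and 1265 to 2279. The CYP1A1 difference was 1.89 to 3.01 without 1 animal (exact permutation p = 0.10 each, the smallest that 3 against 3 allow). Signs turned for genes that were not called: AHRR (−0.043 with library totals), FOXJ1 (−0.040 with library totals, −0.027 to 0.088 without 1 animal) and SCGB1A1 (−0.19 to 0.39 without 1 animal, −0.000247 without S4). Beyond fewer samples or genes tested, the causes were not tested. Genes with normalized counts near 10 have few reads, which limits their precision.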

Other observations

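Several gene families outside the lists were described after their values had been seen, so their counts carry no test and stand beside 5.19% called higher and 5.96% called lower among all genes. Of 365 zinc finger genes with ZNF symbols, 7 were called higher (1.92%) and 40 lower (11.0%), and the median log2 change was −0.07 (−0.15 under library totals). ZNF638 (−0.38, adjusted p = 8.40e-05), ZNF507 (−0.56, adjusted p = 2.00e-04) and ZNF445 (−0.60, adjusted p = 5.69e-04) were among those that fell. Of 21 importin and exportin genes, which carry proteins and RNA through nuclear pores, 0 were called higher and 4 lower, with TNPO1 at −0.40 and XPO1, the main nuclear exporter, at −0.20.

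Aminoacyl tRNA synthetases, which charge tRNAs, had 8 of 20 called higher and 0 lower, led by GARS1 (0.31, adjusted p = 5.04e-04) and YARS1 (0.28, adjusted p = 0.00130), and the median of 0.08 was 0.000875 under library totals. Proteasome subunits had 9 of 43 called higher and 1 lower (PSMD10, −0.40), with 40 above 0 and a median of 0.10 that was 0.02 under library totals. Keratins had 4 of 13 called higher, among them KRT7 and KRT18 (0.18 and 0.18), and S100 genes 2 of 11, S100A9 and S100A6 (0.18 and 0.15). The medians of these families, 0.10 and 0.10, were 0.02 and 0.01 under library totals. Cytosolic ribosomal protein genes had 7 of 76 called higher and 0 lower, with a median of 0.05 that was −0.03 under library totals, and complex I subunits 4 of 32, with medians of 0.08 and −0.003.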
